A study of Homo sapiens with 9 samples.

Results

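10 genes that handle cellular iron were followed across 9 RNA-seq libraries of HCT116, a widely used line derived from a human colorectal carcinoma. They were FTH1 and FTL (the ferritin subunits), TFRC and SLC11A2 (iron uptake), SLC40A1 (iron export), IREB2, ACO1 and FBXL5 (iron sensing), NCOA4 (ferritin turnover) and LCN2 (a secreted carrier of iron-binding siderophores). The 10 genes were picked by name from 60651 gene rows of the deposited count table, which also holds 1181 repeat subfamilies. LCN2 entered because its level differed in one of the authors' comparisons, shCTRL V against shCTRL D, so all values from that comparison, the authors' calls at an adjusted p below 0.05 included, are given as a description and support nothing here.

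By their labels, the libraries form 3 groups of 3. Cells carrying a short hairpin RNA against SLC6A3, the dopamine transporter gene, received the solvent DMSO (shSLC6A3 DMSO). Cells carrying a control hairpin received an agent abbreviated VXN (shCTRL VXN), and further cells with the control hairpin received DMSO (shCTRL DMSO). The labels neither spell out VXN nor state a dose, a time, the hairpin sequences or whether replicates came from separate cultures. The p-values therefore reflect how much these libraries vary, which may be technical. All libraries carry a hairpin, and the labels list no cells without one.

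The labels and the authors' 2 deposited comparison tables disagree on which library belongs to which group. The tables compare shCTRL V and shDAT D with shCTRL D. A DESeq2 rerun returned all 38907 p-values of each table within 1e-06 when the libraries were placed in the following 3 sets, and only 1.41% (shDAT D) and 0% (shCTRL V) when the labels were followed. The shCTRL V set holds the libraries labelled shSLC6A3 DMSO replicate 1, shCTRL VXN replicate 3 and shCTRL DMSO replicate 3. The shDAT D set holds those labelled shCTRL VXN replicate 1 and shCTRL DMSO replicates 1 and 2. The shCTRL D set holds those labelled shSLC6A3 DMSO replicates 2 and 3 and shCTRL VXN replicate 2. Below, the 3 values of a set follow this order, and a set says only which libraries entered a table, not which label is right.

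Libraries held 30251364 to 60215785 counts in total. SLC6A3, the hairpin target, had 0 to 6 counts in every library, too few to check the labels. In all, 7 of 8 epithelial markers exceeded 100 CPM (a gene's counts scaled to the library total) in each library, EPCAM among them at 326 to 399 CPM, while VIL1, a brush border gene, had 0 to 6 counts. ELANE, CSF3R, S100A8 and FCGR3B, defining markers of neutrophils, which store LCN2 protein, had no count in any library. The 8 neutrophil markers summed to 0.560 to 0.641 CPM in the shCTRL V set, 0.595 to 0.718 CPM in the shDAT D set and 0.359 to 0.561 CPM in the shCTRL D set. The 8 macrophage markers, mostly CD68, summed to 3.87 to 4.39 CPM, 7.21 to 7.57 CPM and 3.72 to 7.31 CPM in the same sets, and PTPRC had at most 2 counts. The 3 shCTRL V libraries stood apart from the other 6: the summed level of 8 proliferation genes was 358 to 453 CPM there, 2355 to 2482 CPM in the shDAT D set and 2479 to 2751 CPM in the shCTRL D set. The part of proliferation in the values below was not tested. Within the shCTRL D set, shCTRL VXN replicate 2 correlated at r = 0.975 with both set mates and at 0.996 to 0.997 with the shDAT D libraries (log2 CPM over 11664 genes, a description). In bulk RNA, fewer cells of a type and less RNA per cell cannot be told apart.

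Cells take up transferrin-bound iron through the transferrin receptor, move it out of endosomes by a divalent metal transporter, and keep what is not used in ferritin shells, whose heavy chain oxidises iron and whose light chain helps to form the mineral core. Iron regulatory proteins, the products of ACO1 and IREB2, bind stem-loops called iron responsive elements when iron is scarce. Binding in the 5′ untranslated region blocks translation of ferritin and ferroportin, and binding in the 3′ untranslated region protects transferrin receptor mRNA from decay. Ferritin genes are also transcribed more under oxidative stress through the NRF2 pathway, and LCN2 is an acute-phase gene driven by NF-kB and C/EBP factors.

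The element that ties these mRNAs together is shown for each member with a fully paired core and for SLC11A2, whose imperfect element is known, since it marks which transcripts can be controlled after transcription, a step that mRNA counts do not capture in full. In the sequences below, read from GENCODE v29 transcripts on GRCh38, capitals mark the 17-base core: an unpaired C, 5 stem bases, the loop CAGTG with a closing base other than G, and 5 bases that pair with the first stem (G-U pairs allowed). With all 5 pairs required, 214 of 19669 coding genes (1.09%) held such a core, and with at least 4 pairs 1569 did (7.98%). Only the transcript strand was searched.
FTH1, 5′ untranslated region (chr11:61967573-61967602, minus strand): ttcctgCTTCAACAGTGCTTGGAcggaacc
FTL, 5′ untranslated region (chr19:48965335-48965364, plus strand): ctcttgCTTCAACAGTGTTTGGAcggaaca
SLC40A1, 5′ untranslated region (chr2:189580660-189580689, minus strand): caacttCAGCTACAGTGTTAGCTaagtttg
TFRC, 3′ untranslated region (chr3:196050978-196051007, minus strand): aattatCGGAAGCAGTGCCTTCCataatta
TFRC, 3′ untranslated region (chr3:196050574-196050603, minus strand): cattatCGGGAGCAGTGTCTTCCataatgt
TFRC, 3′ untranslated region (chr3:196050509-196050538, minus strand): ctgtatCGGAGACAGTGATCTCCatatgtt
TFRC, 3′ untranslated region (chr3:196050462-196050491, minus strand): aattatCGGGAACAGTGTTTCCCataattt
SLC11A2, 3′ untranslated region (chr12:50988268-50988297, minus strand): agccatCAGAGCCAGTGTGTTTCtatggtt

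Both ferritin elements carry the same first stem, and the 4 TFRC elements that met the pattern are a cluster in one untranslated region. Elements that depart from the pattern would be missed by this search. The SLC11A2 element reached 4 of 5 pairs and lies in the principal transcript. ACO1 and IREB2 held 3′ matches with 4 of 5 pairs as well, which are not printed. No core with 4 or 5 pairs was found in the principal transcripts of LCN2, NCOA4 and FBXL5.

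**Figure D1:**
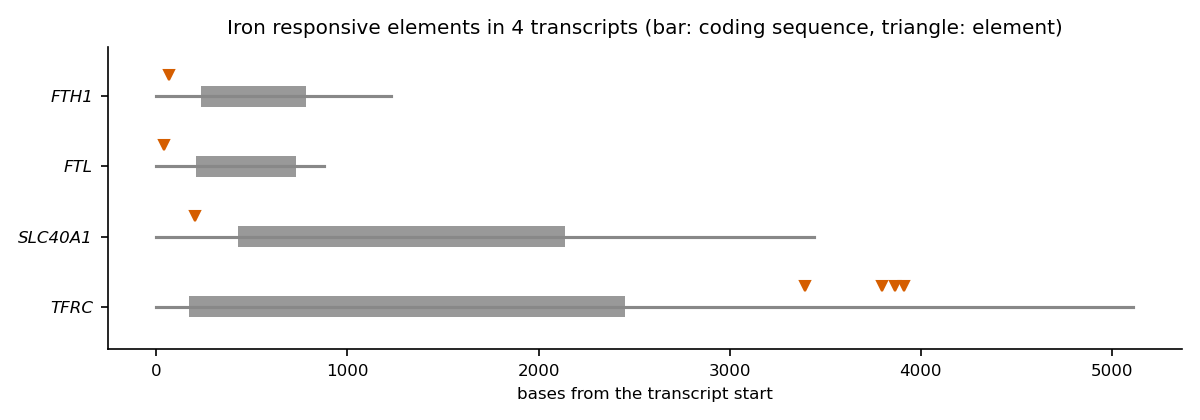
Position of each 5-pair element (triangle) along the principal transcript of 4 genes, in bases from the transcript start; the bar is the coding sequence and the line the whole transcript. The elements of FTH1, FTL and SLC40A1 lie before the coding sequence and the 4 of TFRC after it.

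Ferritin mRNA was the most abundant of the group and differed most in the amount of RNA. Levels between genes are compared per kilobase of the principal transcript: over the 9 libraries FTH1 averaged 2557 ± 2180 and FTL 1754 ± 910 CPM per kilobase (SD, n = 9). TFRC followed at 78.0 ± 10.7 and NCOA4 at 66.6 ± 11.9, then LCN2 at 26.1 ± 37.1. IREB2, FBXL5, SLC11A2 and ACO1 lay between 16.3 and 11.2 on the same scale, and SLC40A1 was lowest at 0.466 ± 0.330 CPM per kilobase (SD, n = 9). Ranges of neighbours in this order overlapped except between FTL and TFRC and between ACO1 and SLC40A1.

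FTH1 (ENSG00000167996.16, chr11:61959718-61967660, minus strand) encodes the ferritin heavy chain. It had 6579, 6949 and 6576 CPM in the shCTRL V set, 1235, 1162 and 1216 CPM in the shDAT D set, and 1683, 1678 and 1203 CPM in the shCTRL D set. The shCTRL V libraries lay above all others without overlap, and shCTRL VXN replicate 2 lay inside the range of the shDAT D libraries rather than with its own set. Means were 6701 ± 214 CPM in the shCTRL V set and 1521 ± 276 CPM in the shCTRL D set (SD, n = 3 each), a ratio of 4.41. The authors' deposited table gave FTH1 a shrunken log2 fold change of 2.12 (SE 0.13) for shCTRL V over shCTRL D.

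FTL (ENSG00000087086.15, chr19:48965301-48966878, plus strand) encodes the light chain. Its levels were 2691, 2424 and 2682 CPM in the shCTRL V set, 997, 963 and 1013 CPM in the shDAT D set, and 1059, 1046 and 981 CPM in the shCTRL D set. The order of the sets was as for FTH1, with a smaller ratio of 2.53 between the means of shCTRL V and shCTRL D, and a log2 fold change of 1.33 (SE 0.08) in the authors' deposited table. The subunits therefore differed unequally: the ratio of FTH1 to FTL counts was 2.44, 2.87 and 2.45 in the shCTRL V set, 1.24, 1.21 and 1.20 in the shDAT D set, and 1.59, 1.60 and 1.23 in the shCTRL D set. Together they took 0.926% to 0.937% of all counts in shCTRL V libraries, 0.212% to 0.223% in shDAT D libraries and 0.218% to 0.274% in shCTRL D libraries.

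Both ferritin genes have many processed pseudogenes, to which reads could be misassigned. The 24 rows named as FTH1 pseudogenes held 1.35% to 1.56% of the FTH1 count per library, and the 16 FTL pseudogene rows held 0.568% to 0.677% of the FTL count. Exons of FTH1 also overlap BEST1 on the opposite strand. The library kit does not mark strand, so reads in the shared stretch cannot be told apart by strand. BEST1 had 116 to 1415 counts, against at least 37354 for FTH1.

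TFRC (ENSG00000072274.13, chr3:196027183-196082189, minus strand), the transferrin receptor, varied far less than ferritin. It had 427, 463 and 432 CPM in the shCTRL V set, 353, 323 and 345 CPM in the shDAT D set, and 453, 442 and 350.3 CPM in the shCTRL D set. The shCTRL V and shCTRL D ranges overlapped, and shCTRL VXN replicate 2 again matched the shDAT D libraries. For shCTRL V over shCTRL D the authors' deposited table gave a log2 fold change of 0.09 (SE 0.11), close to the median of all its features, which was -0.00. Unshrunken, it was 0.09 with all libraries and -0.05 without shCTRL VXN replicate 2. It was 0.17 or 0.15 without shSLC6A3 DMSO replicate 2 or 3 alone, and 0.41 without both, which leaves 1 library in the shCTRL D set.

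SLC11A2 (ENSG00000110911.17, chr12:50979401-51028566, minus strand), the divalent metal transporter DMT1, was nearly flat. It had 50.5, 51.9 and 50.8 CPM in the shCTRL V set, 51.4, 45.6 and 47.2 CPM in the shDAT D set, and 46.1, 45.3 and 50.3 CPM in the shCTRL D set. The lowest shCTRL V library exceeded the highest shCTRL D library by a fraction of 1 CPM, and the log2 fold change in the authors' deposited table was 0.12 (SE 0.07) for shCTRL V over shCTRL D.

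SLC40A1 (ENSG00000138449.11, chr2:189560579-189583758, minus strand) encodes ferroportin, the only known iron exporter of mammalian cells. It was scarce, with 27, 26 and 17 counts in the shCTRL V set, 75, 136 and 140 counts in the shDAT D set, and 55, 47 and 150 counts in the shCTRL D set. In CPM these were 0.582, 0.546 and 0.404 for shCTRL V, 2.48, 2.67 and 3.14 for shDAT D, and 0.913, 0.887 and 2.81 for shCTRL D. The shCTRL V set was lowest and did not overlap with either other set, and within shCTRL D the library shCTRL VXN replicate 2 was about as high as the shDAT D libraries. The authors' deposited table gave a log2 fold change of -1.36 (SE 0.43) for shCTRL V over shCTRL D. Unshrunken, it was -1.55 with all libraries and -0.84 without shCTRL VXN replicate 2. It was -1.80 or -1.81 without shSLC6A3 DMSO replicate 2 or 3 alone, and -2.37 without both. Without shCTRL VXN replicate 2, 48.1% of all features tested in this contrast were called by the DESeq2 rerun.

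IREB2 and ACO1, the genes of the iron regulatory proteins, varied little. IREB2 (ENSG00000136381.13, chr15:78437431-78501456, plus strand), which encodes iron regulatory protein 2, had 98.4, 98.6 and 98.1 CPM in the shCTRL V set, 106, 105 and 111 CPM in the shDAT D set, and 106, 103 and 108 CPM in the shCTRL D set. ACO1 (ENSG00000122729.19, chr9:32384603-32454769, plus strand), the cytosolic aconitase that becomes iron regulatory protein 1 when it loses its iron-sulfur cluster, had 83.5, 89.3 and 86.9 CPM in the shCTRL V set, 87.3, 85.6 and 85.3 CPM in the shDAT D set, and 75.1, 75.4 and 86.9 CPM in the shCTRL D set. For shCTRL V over shCTRL D, the authors' deposited table gave log2 fold changes of -0.09 (SE 0.05) for IREB2 and 0.14 (SE 0.06) for ACO1. IREB2 was lowest in the shCTRL V set without overlap, while for ACO1 the ranges of those sets overlapped.

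FBXL5 (ENSG00000118564.15, chr4:15604539-15681679, minus strand) is the iron-binding ubiquitin ligase subunit that targets iron regulatory protein 2 for degradation when iron is plentiful. It had 53.2, 50.9 and 53.2 CPM in the shCTRL V set, 41.3, 41.7 and 42.6 CPM in the shDAT D set, and 35.9, 34.7 and 40.1 CPM in the shCTRL D set. FBXL5 was the only member of the 10 whose 3 sets did not overlap in any pair. The share of all features with this pattern was not counted, so nothing is read from it. The authors' deposited table gave a log2 fold change of 0.51 (SE 0.06) for shCTRL V over shCTRL D. Its exons overlap FAM200B on the opposite strand, which had 290 to 711 counts, and without strand the reads of the pair cannot be told apart.

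NCOA4 (ENSG00000266412.6, chr10:46005088-46030714, minus strand) encodes the receptor that delivers ferritin to lysosomes, where its iron is released. It had 189.5, 195 and 185 CPM in the shCTRL V set, 139, 135 and 133 CPM in the shDAT D set, and 134, 134 and 137 CPM in the shCTRL D set. The 6 libraries outside shCTRL V lay within a few CPM of each other. The log2 fold change of shCTRL V over shCTRL D was 0.50 (SE 0.06) in the authors' deposited table.

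LCN2 (ENSG00000148346.12, chr9:128149071-128153455, plus strand), also called NGAL, encodes lipocalin 2, which sequesters the siderophores bacteria use to capture iron. It had 69.7, 48.9 and 71.2 CPM in the shCTRL V set, 2.55, 0.823 and 1.26 CPM in the shDAT D set, and 2.16, 2.06 and 0.729 CPM in the shCTRL D set. The corresponding counts were 3236, 2329 and 2998, then 77, 42 and 56, then 130, 109 and 39. Means were 63.3 ± 12.4 CPM in the shCTRL V set and 1.65 ± 0.80 CPM in the shCTRL D set (SD, n = 3 each), a ratio of 38.4, and the authors' deposited table gave a log2 fold change of 5.13 (SE 0.56). This was the value by which LCN2 was chosen. Among the 6 other libraries LCN2 spanned 0.729 to 2.55 CPM, and its order there did not follow the sets.

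A stretch upstream of the LCN2 start is shown because LCN2 had the largest ratio and its transcription is known to respond to NF-kB. The match to GGGAANNNCC (both strands searched) is in capitals, begins 176 bases before the RefSeq start and is taken from RefSeq on GRCh38.p14. That start (chr9:128149453) lies inside the GENCODE span given above, and so does the stretch.
LCN2, upstream (chr9:128149267-128149296, plus strand): gcagcactccGGGAATGTCCctcactctcc

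That motif occurred in 6.02% of 35116 promoter windows of 250 bases, and of the 9 members with a window in that table only LCN2 held it. TGACNNNGC, the core of the antioxidant response element bound by NRF2, occurred in 10.9% of windows (both strands) and among these members in that of FBXL5. FTH1 had no window, so its promoter was not searched for either motif. Such matches describe letters, not binding. Among 10 genes listed as regulators of LCN2 or inflammatory partners, 8 had an adjusted p in the authors' deposited table for shCTRL V. Of these, 5 were called higher and 0 lower (62.5%), with a median log2 fold change of 0.37. Of all features 44% were called in either direction, 21.4% higher and 22.7% lower. The list was chosen with earlier results known, so nothing is read from its count. Whether any listed gene acts on LCN2 here was not tested. RELB, an NF-kB subunit, had a log2 fold change of 1.23 (SE 0.08) and CEBPB, a C/EBP factor, 0.94 (SE 0.08) in the authors' deposited table. The other NF-kB genes listed were RELA at 0.28 (SE 0.06), NFKBIZ at 0.37 (SE 0.21) and NFKB1 at -0.16 (SE 0.11) there. NFKBIZ and NFKB1 were not called. RELB had 27.8, 29.7 and 28.1 CPM in the shCTRL V set and 12.0, 12.0 and 12.5 CPM in the shCTRL D set. IL6 had 0 to 2 counts per library.

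**Figure D2:**
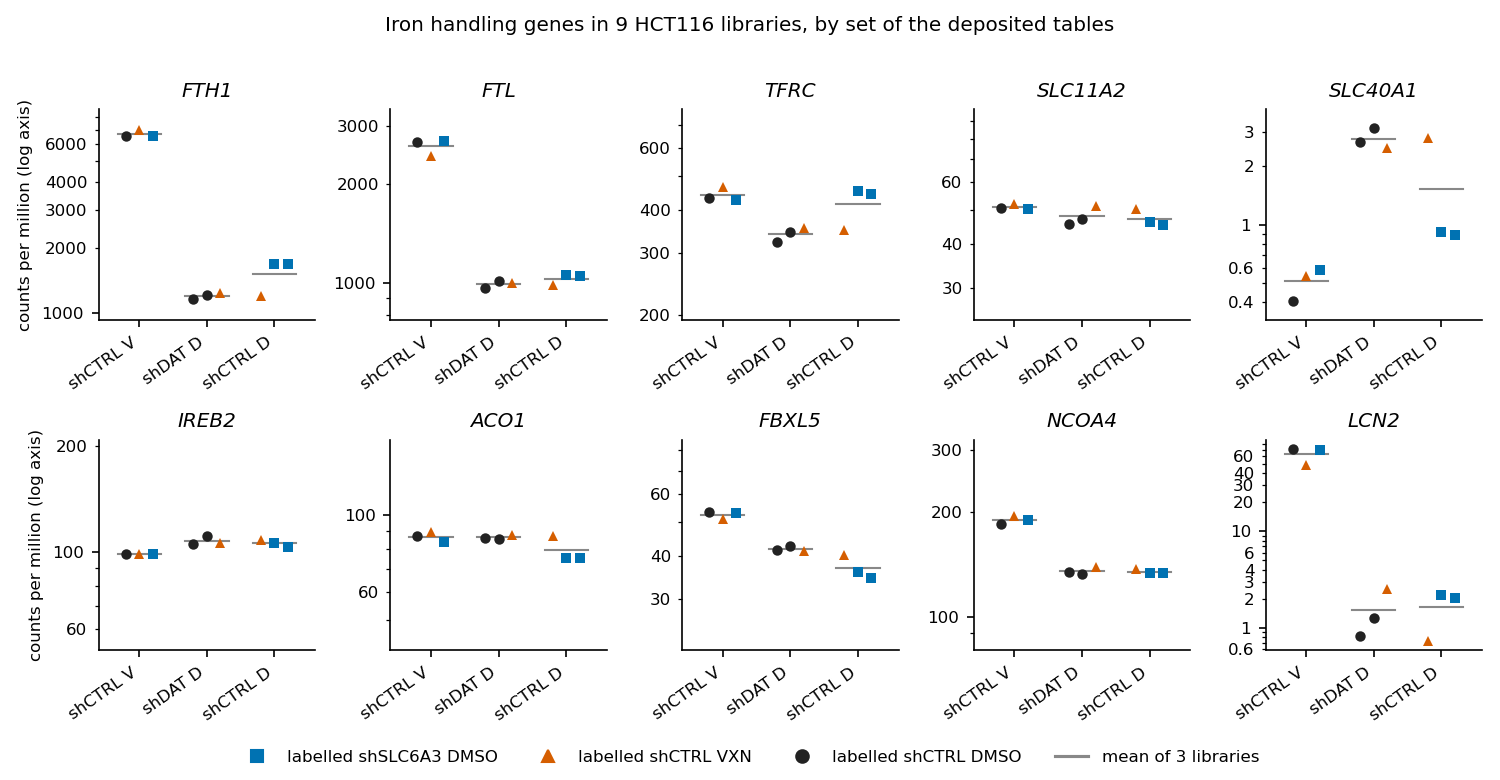
CPM (log axis) of the 10 genes in every library; each point is a library, its shape and colour give the label, columns are the sets behind the deposited tables, and the grey line is the mean of 3 libraries. FTH1, FTL, NCOA4 and LCN2 are highest in the shCTRL V set. For FTH1, FTL, TFRC, SLC40A1 and ACO1 the shCTRL VXN triangle in the shCTRL D column lies within the range of the shDAT D points, unlike its set mates.

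In the shCTRL V table as a whole, 44% of 24274 features with an adjusted p were called by the authors' DESeq2 values at an adjusted p below 0.05, 21.4% higher and 22.7% lower. Of the 10 members, the authors' deposited table called 5 higher (LCN2, FTH1, FTL, NCOA4 and FBXL5) and 1 lower (SLC40A1). The members were chosen with this contrast known, so nothing is read from that count.

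**Figure D3:**
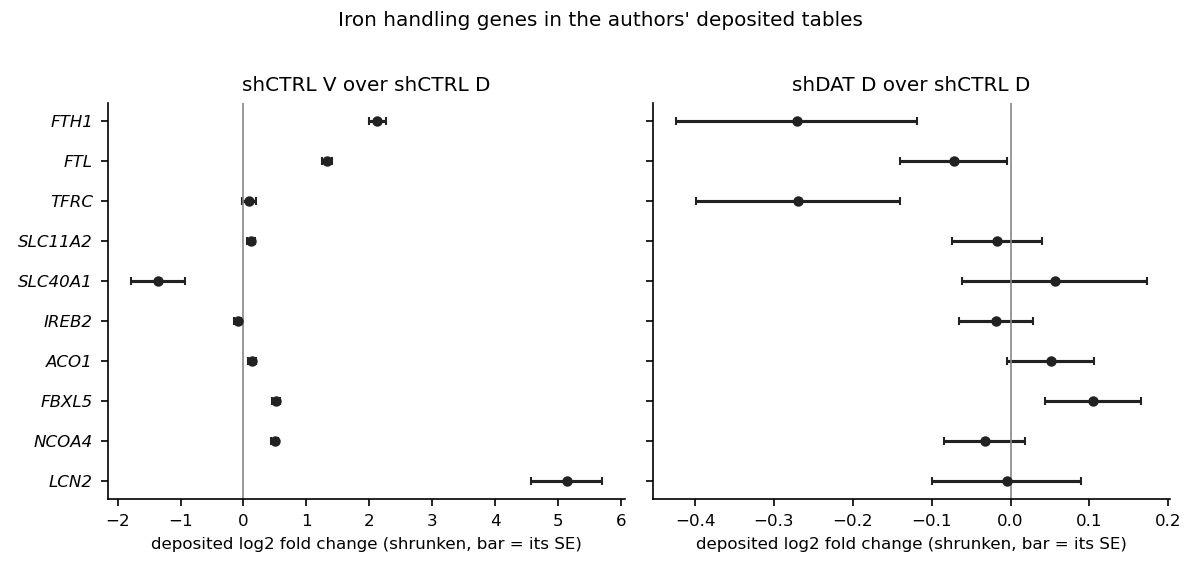
Shrunken log2 fold changes from the authors' deposited tables for the 10 genes; points are values, bars are their SE, and the panels have different axes. Values reach 5.13 (LCN2) for shCTRL V over shCTRL D and stay between -0.27 and 0.10 for shDAT D over shCTRL D.

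The shDAT D table asks what differs between the shDAT D and shCTRL D sets, and it shares the 3 shCTRL D libraries with the table above. FTH1 fell by a shrunken log2 value of 0.27 (SE 0.15, DESeq2 adjusted p = 0.0494) in the authors' deposited table, and no other member was called. The rerun gave the same p-values with unshrunken estimates, which was -0.40 (SE 0.13) for FTH1. Adjusted p-values printed with deposited values, here and below, belong to the unshrunken estimates. They do not test the shrunken value and SE beside them. TFRC had -0.27 (SE 0.13, DESeq2 adjusted p = 0.0506) and FTL -0.07 (SE 0.07, DESeq2 adjusted p = 0.322) in the authors' deposited table. The background share called was 6.62% of 10403 features (1% higher, 5.62% lower), and 1 of 9 members with an adjusted p was called. FBXL5 had 0.10 (SE 0.06, DESeq2 adjusted p = 0.134) and LCN2 -0.00 (SE 0.09, DESeq2 adjusted p = 0.846) in the authors' deposited table. For LCN2 the unshrunken rerun gave -0.17 (SE 0.57), and the alternative fits ran from -0.75 to 1.09. Its difference was thus poorly estimated rather than shown to be absent. Log2 fold changes of SLC11A2, IREB2, ACO1 and NCOA4 ran from -0.03 to 0.05 in the authors' deposited table. SLC40A1 had no adjusted p there, being below the authors' filter on low counts. Its shrunken log2 fold change was 0.06 (SE 0.12) in the authors' deposited table, and the unshrunken rerun gave 0.82 (SE 0.38).

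These values turned on shCTRL VXN replicate 2. With that library left out, the DESeq2 rerun called 5 of 10 members at a background of 37.5% (7890 of 21018 features). That leaves shSLC6A3 DMSO replicates 2 and 3 in the shCTRL D set. They differed little beyond sampling noise (chi-square per degree of freedom 1.455), so the p-values of this fit may rest on technical spread. FTH1 fell by 0.57 on the log2 scale (SE 0.05, DESeq2 adjusted p = 6.08e-33) and TFRC fell by 0.48 (SE 0.05, DESeq2 adjusted p = 3.61e-17). FTL fell by 0.17 (SE 0.05, DESeq2 adjusted p = 0.00274). SLC40A1 rose by 1.53 (SE 0.27, DESeq2 adjusted p = 2.04e-07) and FBXL5 by 0.16 (SE 0.06, DESeq2 adjusted p = 0.0232). With shSLC6A3 DMSO replicates 2 and 3 left out instead, which leaves 1 library in the shCTRL D set and assumes that it varies like the others, 0 members and 0 of 38047 features were called by DESeq2 (640 at an unadjusted p below 0.05), and FTH1 stood at 0.02 (SE 0.07). FTH1 was not called when any single library other than shCTRL VXN replicate 2 was left out (DESeq2 adjusted p = 0.0608 to 1), while its log2 fold change was -0.42 to -0.30 in those fits, against -0.40 with all libraries. For the same sets edgeR called 0 features (4251 at an unadjusted p below 0.05), where DESeq2 called 689. In edgeR FTH1 had a log2 fold change of -0.37 (edgeR adjusted p = 0.189).

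**Figure D4:**
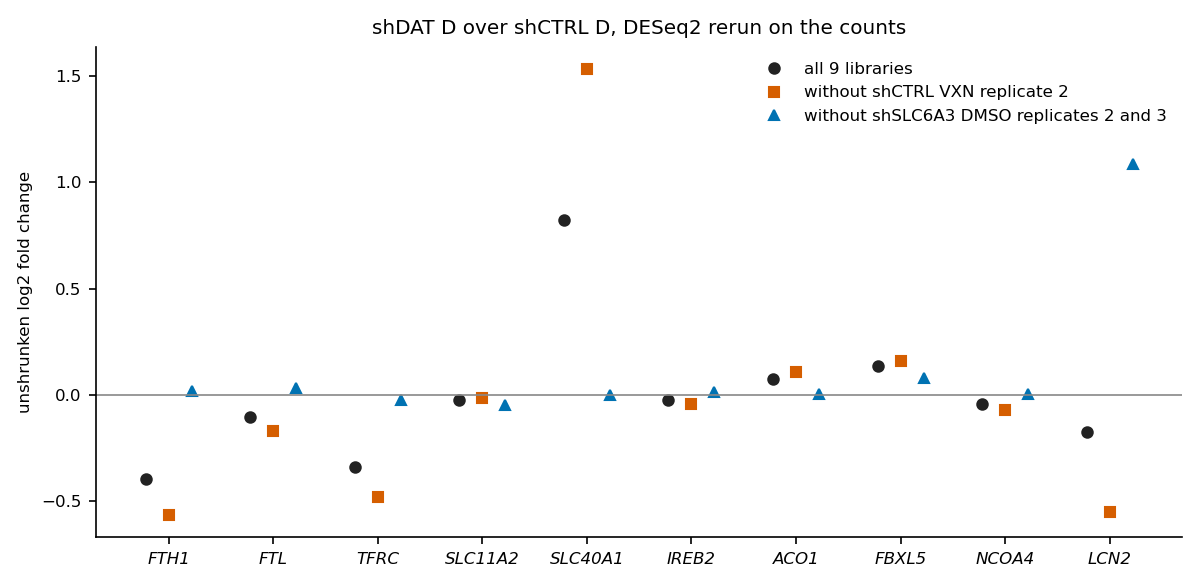
Unshrunken DESeq2 log2 fold changes of the 10 genes for shDAT D over shCTRL D, with all 9 libraries (circles), without shCTRL VXN replicate 2 (squares) and without shSLC6A3 DMSO replicates 2 and 3 (triangles). FTH1 stands at -0.40, -0.57 and 0.02 under these settings and SLC40A1 at 0.82, 1.53 and -0.00.

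The labels imply 2 further comparisons, and neither called a member. For shSLC6A3 DMSO against shCTRL DMSO, edgeR's quasi-likelihood test called 0 of 20402 features, 0% of them (930 at an unadjusted p below 0.05), and DESeq2 called 0. For shCTRL VXN against shCTRL DMSO, edgeR called 2 features, both lower, which is 0.0098%, and DESeq2 called 20. A labelled group mixes libraries from different sets, and the spread within groups was wide: LCN2 averaged 24.6 ± 39.0 CPM in shSLC6A3 DMSO, 17.4 ± 27.3 CPM in shCTRL VXN and 24.4 ± 40.5 CPM in shCTRL DMSO (SD, n = 3 each). FTH1 averaged 3314 ± 2828 CPM in shSLC6A3 DMSO, 3129 ± 3308 CPM in shCTRL VXN and 2985 ± 3111 CPM in shCTRL DMSO (SD, n = 3 each).

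SLC11A2, IREB2 and ACO1 had the smallest SE of the members in the labelled hairpin comparison. SLC11A2 averaged 47.3 ± 2.77 CPM in shSLC6A3 DMSO, against 47.9 ± 2.68 CPM in shCTRL DMSO (SD, n = 3 each), a log2 fold change of 0.02 (SE 0.10). IREB2 averaged 102 ± 3.81 CPM in shSLC6A3 DMSO, against 105 ± 6.52 CPM in shCTRL DMSO (SD, n = 3 each), a log2 fold change of 0.01 (SE 0.08). ACO1 averaged 78.0 ± 4.75 CPM in shSLC6A3 DMSO, against 85.9 ± 0.844 CPM in shCTRL DMSO (SD, n = 3 each), a log2 fold change of -0.10 (SE 0.09). The edgeR adjusted p was 0.999 for each of these genes.

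TFRC averaged 441 ± 12.9 CPM in shSLC6A3 DMSO, against 367 ± 57.2 CPM in shCTRL DMSO (SD, n = 3 each), a log2 fold change of 0.30 (SE 0.17, edgeR adjusted p = 0.978). SLC40A1 averaged 0.794 ± 0.184 CPM in shSLC6A3 DMSO, against 2.07 ± 1.46 CPM in shCTRL DMSO (SD, n = 3 each), a log2 fold change of -1.33 (SE 0.76, edgeR adjusted p = 0.979). SLC40A1 was among the most variable members. Neither the TFRC nor the SLC40A1 difference was called (edgeR unadjusted p = 0.114 and 0.119). Labelled groups mix libraries of different sets, so this does not show that the differences are absent. For LCN2 the edgeR log2 fold change was 0.02 (SE 2.12) for shSLC6A3 DMSO over shCTRL DMSO and -0.48 (SE 2.13) for shCTRL VXN over shCTRL DMSO, so even large differences would not have been detectable. The first value took either sign when 1 library was left out, at -3.54 without shSLC6A3 DMSO replicate 1 and 4.63 without shCTRL DMSO replicate 3, and it was 2.04 with the replicate block. The second ran from -3.99 without shCTRL VXN replicate 3 to 4.14 without shCTRL DMSO replicate 3. LCN2 was called in none of these fits.

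Other genes of iron and heme metabolism were read from 7 lists holding 84 genes, chosen from general knowledge with earlier results known. Of 77 with an adjusted p in the authors' deposited table for shCTRL V, 15 were called higher and 33 lower (62.3%), where 44% of all features were called, 21.4% higher and 22.7% lower. These genes had a median log2 fold change of -0.16, against -0.00 for all features. The 44% covers features of all count levels and repeat subfamilies, and the lists were not matched to it by level. After its filter on low counts, edgeR called 11139 of 20402 features for the same sets. A list share above 44% is therefore not read as particular to iron genes. The same limit holds for the LCN2 regulators above and for each list below. The heme list had 7 genes higher and 5 lower of 17 (70.6% called). HMOX1, heme oxygenase 1, which breaks heme down and releases its iron, had 372, 418 and 374 CPM in the shCTRL V set, against 26.3, 27.1 and 30.1 CPM in the shCTRL D set. Its log2 fold change was 3.81 (SE 0.08) in the authors' deposited table. ALAS1, the rate-limiting enzyme of heme synthesis, stood at 0.996 (SE 0.06) there, while the authors' deposited table put CPOX, a later step, at -1.30 (SE 0.10) and ABCG2, a porphyrin exporter, at -1.36 (SE 0.21).

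Of 12 uptake and reduction genes, 2 were called higher and 5 lower (58.3%, against 44% of all features). SLC39A14 and SLC39A8, the metal transporters ZIP14 and ZIP8, lay in opposite directions at 0.51 (SE 0.12) and -1.17 (SE 0.10) in the authors' deposited table for shCTRL V. STEAP3, the endosomal ferrireductase, stood at -0.98 (SE 0.06) and STEAP2, a related reductase, at 0.26 (SE 0.10) in the same authors' deposited table. SLC22A17, a receptor for lipocalin 2, had 4.37, 3.97 and 4.27 CPM in the shCTRL V set, 6.74, 8.31 and 7.54 CPM in the shDAT D set, and 4.33, 4.44 and 8.34 CPM in the shCTRL D set. LRP2, another lipocalin receptor, had 1 to 4 counts per library.

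Of 7 export and systemic regulators 5 had an adjusted p, and 3 of these were called lower and none higher (60% called, against 44% of all features, of which 22.7% lower). BMP6, the ligand that induces hepcidin in the liver, was at -3.31 (SE 0.33) and ERFE, the erythroid hormone that represses hepcidin, at -1.86 (SE 0.15) in the authors' deposited table for shCTRL V. BMP6 was scarce, at 0.388, 0.315 and 0.570 CPM in the shCTRL V set, against 3.16, 3.23 and 6.96 CPM in the shCTRL D set.

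Of 21 mitochondrial iron-sulfur cluster genes, 3 were called higher, 11 lower and 7 not at all (66.7% called, median -0.32). Of 11 cytosolic ones, 1 was called higher, 7 lower and 3 not at all (72.7% called, median -0.35). Of all features 44% were called, 22.7% lower. ISCU, the assembly scaffold, stood at 0.68 (SE 0.12) and SLC25A37, mitoferrin 1, at 0.46 (SE 0.06) in the authors' deposited table for shCTRL V. BOLA3, which helps to deliver clusters to mitochondrial proteins, stood at -0.83 (SE 0.10) and CISD3 at -0.60 (SE 0.09) in the authors' deposited table. The cytosolic factors CIAO3, NUBP2 and CIAO2A were at 0.34 (SE 0.12), -0.55 (SE 0.08) and -0.51 (SE 0.10) in the authors' deposited table.

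Storage, chaperone and release genes had 0 higher and 2 lower of 6, a share of 33.3% that is below the 44% of all features. HERC2, a ubiquitin ligase that acts on NCOA4, was at -0.68 (SE 0.08) and PCBP1, a chaperone that loads ferritin with iron, at -0.20 (SE 0.06) in the authors' deposited table for shCTRL V. Of 5 other mRNAs known to hold iron responsive elements, 2 were higher and 0 lower, a share of 40%. CDC42BPA stood at 0.42 (SE 0.07) and EPAS1, the hypoxia factor HIF-2 alpha, at 0.33 (SE 0.07) in the authors' deposited table. No list was tested as a set.

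In the shDAT D table, 62 of the 84 genes had an adjusted p, and 2 were called higher and 3 lower, 8.06% of them beside the 6.62% of all features. CYBRD1, a ferric reductase, rose by 0.23 (SE 0.10, DESeq2 adjusted p = 0.0478) and CPOX by 0.24 (SE 0.11, DESeq2 adjusted p = 0.0483) in the authors' deposited table. SLC39A14 fell by 0.33 (SE 0.13, DESeq2 adjusted p = 0.0336), CIAO3 fell by 0.32 (SE 0.14, DESeq2 adjusted p = 0.0379) and SLC48A1, a heme transporter, fell by 0.30 (SE 0.14, DESeq2 adjusted p = 0.0476) in the authors' deposited table. CYBRD1 had 33.6, 33.7 and 36.2 CPM in the shDAT D set, against 24.3, 25.4 and 32.4 CPM in the shCTRL D set, where the highest value was again shCTRL VXN replicate 2. In the labelled comparisons edgeR called none of the 75 listed genes tested.

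**Figure D5:**
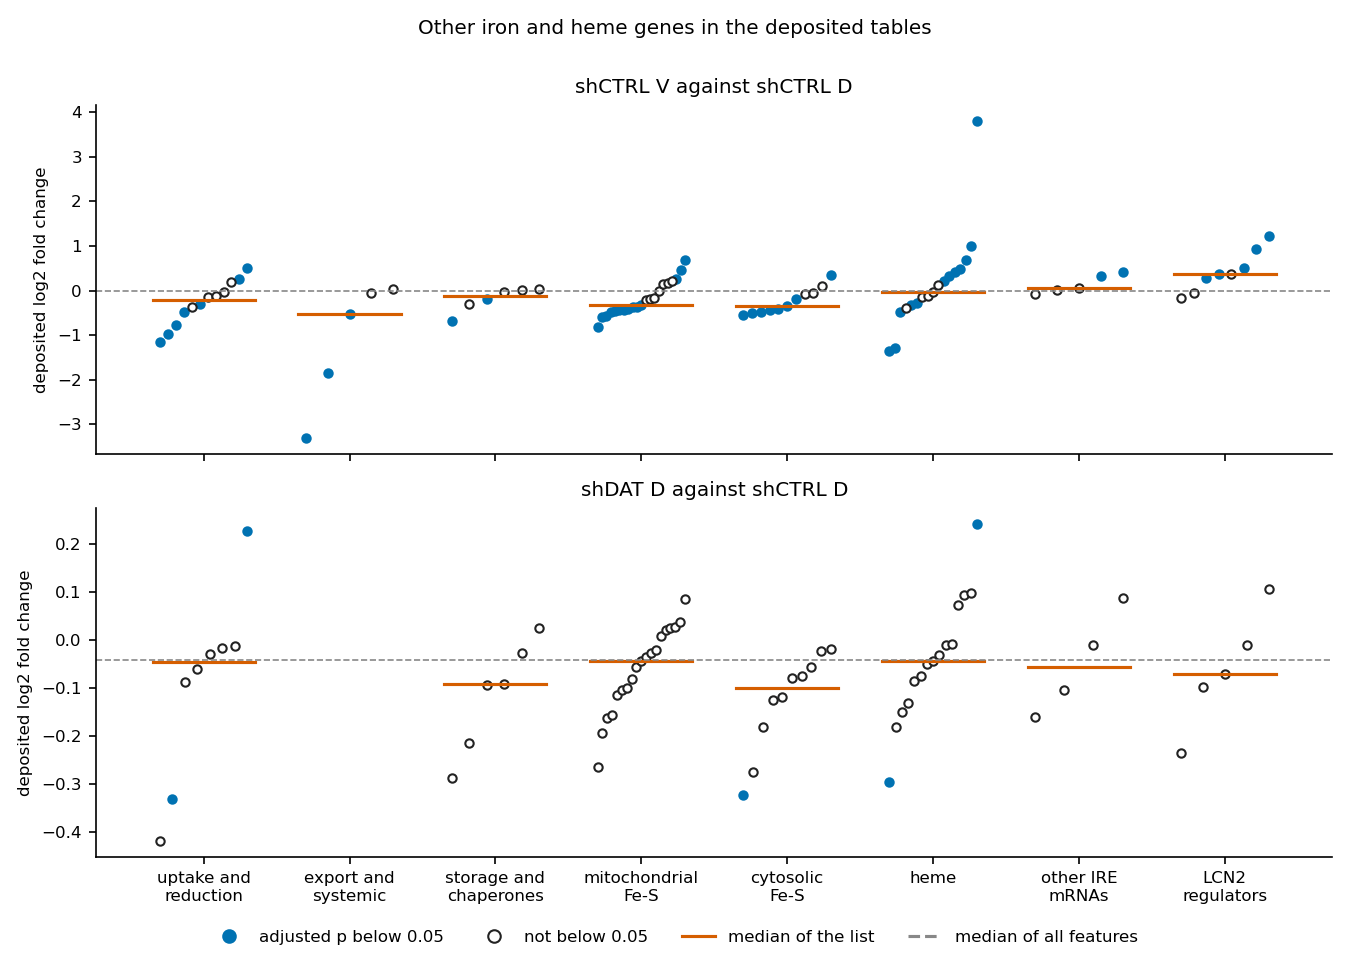
Log2 fold changes from the authors' deposited tables for 7 iron and heme lists and the LCN2 regulators, 1 point per gene with an adjusted p (filled: below 0.05); orange lines are list medians and the dashed line the median of all features, and the panels have different axes. HMOX1 at 3.81 and BMP6 at -3.31 are the extremes of the shCTRL V panel.

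Genes with the most similar profile over the 9 libraries were sought among 11581 genes by Pearson's r of log2 CPM, as a description. All profiles share the same 9 libraries, in which the shCTRL V set stood apart from the rest. How many genes reached a similar r was not counted. For LCN2 they were CD55, H2BC12, GOLT1B, PRKAB2 and SLU7 (r = 0.995 to 0.998). For FTH1 they were CLCN3, PABPC1L, SRXN1, ME1 and WDR45 (r = 0.9988 to 0.9995). For TFRC, whose profile also splits the shCTRL D set, they were PSMA1, KHDC4, MT-TM, C1orf216 and SLC35B1 (r = 0.987 to 0.993), and for SLC40A1 they were DENND6A, SESN3, KLHL15, DHTKD1 and SLC4A8 (r = 0.993 to 0.995).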

How the data were processed

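RNA of 9 HCT116 libraries was made into libraries with a TruSeq RNA v2 kit, which does not mark strand, per the labels' protocols. The submitters' processing notes name fastp 0.20.1, FastQC 0.11.9, STAR (no version), GRCh38 and DESeq2 1.34.0; neither the counting program nor its annotation is named there. The deposited count table holds raw counts per gene and repeat subfamily. The authors' tables hold the base mean, a signal averaged over size-factor-scaled counts, a log2 fold change that is shrunken, its standard error (a score in log2 units), and p-values with adjusted p-values, all by DESeq2 per the submitters' processing notes.

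CPM were computed as counts over all counts of a library, and levels per kilobase with the longest principal transcript of GENCODE v29. Labelled groups were compared with edgeR 4.0.16 (R 4.3.3; quasi-likelihood, TMM, filterByExpr, all 9 libraries), adjusted by Benjamini-Hochberg over 20402 features and called below 0.05. The deposited tables were rerun with DESeq2 1.42.0 on the sets of libraries that return their p-values. Both fits were tested on simulated counts. No pair of libraries agreed within sampling noise, but a pair in each set came closer to it than the remaining library. Its chi-square per degree of freedom was 1.34 in the shCTRL V set, 1.455 in shCTRL D and 2.85 in shDAT D. Against its set mates, the remaining library stood at 13.2 and 13.5, 70.7 and 74.5, and 7.34 and 8.85 in the same order. That library carried the shCTRL VXN label in each set. SD, SE and p-values that count a set as 3 separate replicates may therefore rest partly on technical spread. One title spells VXN as VNN, and the treatment label was used.

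The members and gene lists were chosen with earlier results of these data known. Named genes were all members and, per list and table, up to 2 called genes in each direction with the largest change at a base mean of at least 50, plus the 5 genes most alike to LCN2, FTH1, TFRC and SLC40A1 among those with a mean of at least 1 CPM (log2 of CPM plus 0.1). RELB and CEBPB, of the LCN2 regulators, followed the same rule. SLC22A17, LRP2, IL6, RELA, NFKBIZ and NFKB1 were named after their values were seen. Sequences came from GENCODE v29 and RefSeq. Promoter windows were found for 9 of 10 members, all but FTH1.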

Additional observations from a re-analysis of the deposited data

How the results depend on the processing

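For shSLC6A3 DMSO against shCTRL DMSO, 0 features and 0 members were called under all alternatives (DESeq2, other size factors, no filter, 6 libraries, pseudogene reads added, replicate block, each library left out). DESeq2 gave LCN2 no p-value in either labelled comparison, so it tested 9 members there and not LCN2. For shCTRL VXN against shCTRL DMSO, the 2 called features became 20 with DESeq2 and 0 without the filter, with only 6 libraries or with the replicate block, and 0 to 0 with a library left out; members stayed at 0. Same-numbered libraries correlated in their deviations from group means between -0.88 and 0.98, so the numbers do not pair the libraries, and the replicate block called 0 features in both comparisons. In the shDAT D table, the 689 called features became 9 without independent filtering, 0 with edgeR, 0 to 7890 with a library left out, and 0 without both shSLC6A3 DMSO replicates 2 and 3, an alternative chosen after seeing the data. The 1 called member became 0, 0, 0 to 5 and 0 under the same settings, and FTH1 changed sign to 0.0186 in the last. The cause was not tested. In the shCTRL V table both counts stayed within 1.5 times under all alternatives run. Depth limits the scarce genes, among them SLC40A1 (17 to 150 counts per library), LRP2 (1 to 4) and IL6 (0 to 2).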
